A study of Mus musculus with 3 samples.

Results

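The genes described are 39 genes of DNA replication, taken by symbol from the 32287 features counted in 1 single-cell RNA matrix of mouse esophageal cells. All 39 were found in the matrix. They cover the replicative helicase (Mcm2 to Mcm7, Cdc45, Gins1, Gins2), its loaders (Cdc6, Cdt1), the sliding clamp and its loader (Pcna, Rfc2 to Rfc5), polymerases (Pola1, Pola2, Prim1, Pold1, Pold3), fork protection (Rpa2, Clspn, Tipin), flap removal and joining (Fen1, Lig1, Exo1), nucleotide supply and uracil control (Rrm1, Rrm2, Tyms, Tk1, Dut, Ung) and chromatin copying (Chaf1a, Chaf1b, Uhrf1, Hells, Atad2, Slbp). The list was given by name, and it was chosen with earlier results of these data known.

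The cells, called PC, came from organoids of the esophagus of Trp53 floxed mice. Trp53, which encodes the tumour suppressor p53, had been deleted with an adenovirus carrying Cre and EGFP, and Cdkn2a, the locus of p16 and p19Arf, which restrain the cell cycle, had been knocked out with CRISPR/Cas9. The cells expressed Cas9 constitutively, received a barcode library by lipofection, were grown for 3 passages and were sorted as live RFP-positive cells, so every cell in the data shares these changes and there is no unedited control. The labels give esophageal cancer as the tissue and list 3 libraries of the same cells (gene expression, barcodes and scar regions). How many mice or clones were behind the culture is not known here. The matrix was treated as 1 sample without a replicate: all intervals below are 95% intervals that cover counting error only, and no p-value is given.

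Before a cell divides, origins of replication are licensed by loading the MCM helicase onto DNA, the helicase is then activated with Cdc45 and GINS, and polymerases copy both strands behind it. Many of the genes involved are transcribed together under E2F factors as a cell passes from G1 into S phase, and Rb family proteins, which p16 keeps active by inhibiting cyclin D kinases, hold E2F back. In the normal esophagus, division takes place in the basal layer of the squamous epithelium.

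The 300 bases around the annotated start were read for 32 of the 39 genes from RefSeq on GRCm38.p6 (250 before and 50 after the start). Exo1, Rfc2, Gins2, Tipin, Gins1, Atad2 and Mcm4 had no entry. Some genes have several starts, so that 37 windows were searched, on both strands, for the letters TTTGGCGC, TTTCGCGC, TTTCCCGC and TTTGGCGG, which are forms of the E2F site. At least 1 of the 4 was found in 16 of the 37 windows (43.2%), against 777 of all 32851 windows of this length (2.37%). Counted by gene, 16 of 32 members had a match (50%), against 730 of 27025 genes (2.70%). They were Mcm3, Mcm5, Mcm6, Mcm7, Cdc6, Cdt1, Rfc3, Pola1, Pola2, Pold1, Pold3, Clspn, Lig1, Chaf1a, Uhrf1 and Hells. Of the 24 matches, 15 began within 100 bases of the start. A match is a description of letters and not evidence of binding.

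A group of 6 of these windows follows because their genes lead the results. The 3 MCM genes and Clspn carry more than 1 match, and Cdc6 had the largest ratio between cell groups. Dut, the member with the highest level, has no match in its 1 window. The windows of Cdc6 and Dut begin after the GENCODE M21 starts of these genes (98907801 and 125247190). The bases before those starts were not searched. Capitals mark the matched letters, read 5′ to 3′ on the gene's strand, so that a match on the other strand appears as its reverse complement. In Mcm5 and in Mcm6, 2 matches on opposite strands overlap and form 1 run of 12 letters.
Mcm3, chr1:20820263-20820562, minus strand: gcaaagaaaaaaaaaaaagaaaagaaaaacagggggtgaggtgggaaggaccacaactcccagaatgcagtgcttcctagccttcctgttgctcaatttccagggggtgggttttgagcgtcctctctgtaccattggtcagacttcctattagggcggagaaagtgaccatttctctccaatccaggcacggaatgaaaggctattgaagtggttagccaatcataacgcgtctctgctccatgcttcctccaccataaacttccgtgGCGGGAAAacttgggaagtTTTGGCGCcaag
Mcm5, chr8:75109259-75109558, plus strand: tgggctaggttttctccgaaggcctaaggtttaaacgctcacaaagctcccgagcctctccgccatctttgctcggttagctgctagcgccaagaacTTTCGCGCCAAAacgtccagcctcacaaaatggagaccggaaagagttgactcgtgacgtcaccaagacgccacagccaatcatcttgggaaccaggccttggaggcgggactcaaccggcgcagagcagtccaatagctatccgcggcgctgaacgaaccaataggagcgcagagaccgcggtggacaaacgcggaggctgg
Mcm6, chr1:128359656-128359955, minus strand: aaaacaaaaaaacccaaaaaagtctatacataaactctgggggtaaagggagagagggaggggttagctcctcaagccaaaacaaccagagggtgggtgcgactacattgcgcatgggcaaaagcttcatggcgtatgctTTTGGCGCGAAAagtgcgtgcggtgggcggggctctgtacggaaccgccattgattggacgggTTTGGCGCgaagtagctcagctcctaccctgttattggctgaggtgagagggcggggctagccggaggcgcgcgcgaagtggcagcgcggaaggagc
Cdc6, chr11:98907901-98908200, plus strand: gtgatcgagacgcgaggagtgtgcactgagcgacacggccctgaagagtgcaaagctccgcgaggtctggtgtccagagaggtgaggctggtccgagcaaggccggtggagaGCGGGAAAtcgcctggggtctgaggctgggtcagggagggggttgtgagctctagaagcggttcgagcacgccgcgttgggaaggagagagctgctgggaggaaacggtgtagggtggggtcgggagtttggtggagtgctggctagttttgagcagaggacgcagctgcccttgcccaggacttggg
Clspn, chr4:126556730-126557029, plus strand: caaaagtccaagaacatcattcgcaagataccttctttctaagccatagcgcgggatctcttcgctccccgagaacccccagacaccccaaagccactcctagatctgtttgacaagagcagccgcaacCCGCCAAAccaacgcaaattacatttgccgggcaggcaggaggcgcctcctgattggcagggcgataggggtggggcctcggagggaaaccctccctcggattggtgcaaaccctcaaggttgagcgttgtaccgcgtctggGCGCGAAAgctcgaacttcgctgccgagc
Dut, chr2:125247265-125247564, plus strand: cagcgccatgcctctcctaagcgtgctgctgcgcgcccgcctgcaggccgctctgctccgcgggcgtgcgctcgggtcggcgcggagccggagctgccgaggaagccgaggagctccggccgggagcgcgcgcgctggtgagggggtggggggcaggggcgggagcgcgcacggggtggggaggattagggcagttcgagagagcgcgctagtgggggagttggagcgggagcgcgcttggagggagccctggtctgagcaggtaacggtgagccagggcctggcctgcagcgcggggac

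The matrix held 18116 barcodes, of which 14925 had at least 500 genes, at least 1000 UMIs (unique molecules counted) and at most 20% mitochondrial UMIs. The median kept cell had 2955 UMIs. Cells were gated by markers that are not members. The epithelial gate held 11676 cells (78.2%): those with at least 3 UMIs of Epcam, Cdh1, Krt5 and Krt14 and, of the UMIs of both gate lists, at most 10% from Vim, Col1a1, Col1a2, Col3a1, Dcn, Zeb1 and Zeb2. The mesenchymal gate held 1244 cells (8.34%): those with at least 3 UMIs of the latter 7 genes and at least 80% of the gate UMIs from them. The 679 cells with at least 3 gate UMIs in neither gate were called mixed, and the other 1326 ungated. In the held-out lists, 10 epithelial markers summed to 4385 UMIs per 1000000 UMIs (CPM) in the epithelial gate and 642 in the mesenchymal gate, and 10 mesenchymal markers to 528 and 7104 CPM. Krt15 was near 0 in the epithelial gate (4.39 CPM), as were Twist1 (0.94 CPM, against 2.09 in the epithelial gate), Pdgfrb (3.51 CPM) and Col1a2, a gene of the gate itself (0.94 CPM), in the mesenchymal gate. The 6 immune markers summed to at most 13.6 CPM and the 4 endothelial markers to at most 3.49 CPM in any gate, with Tyrobp and Cdh5 at 0 in all 4. Near the borders of the gates, 324 cells had over 5% to 10% mesenchymal UMIs, 242 over 10% to 20%, 307 over 50% to 80% and 250 over 80% to 90%. The doublet caller marked 1 cell, which is no working call, so doublets were not removed. As a gauge of free RNA, Epcam had a UMI in 1.77% and Krt14 in 29.2% of cells in the mesenchymal gate.

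The 39 genes gave 44976 UMIs in kept cells, 0.0990% of all UMIs (0.0981% to 0.0999%) or 3.01 per cell. At least 1 of them was detected in 75.04% of kept cells. The kit tags transcripts at their 3' ends, and the counts, 1 tag per molecule, were not divided by length. Whether reads from introns add to the counts of some genes was not tested. An order of levels between genes therefore describes UMIs and not transcript amounts checked by another method.

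Dut, which encodes the dUTPase that keeps uracil out of DNA, had by far the highest level, 206.4 CPM (202.3 to 210.7). It alone made up 20.9% of the members' UMIs and was detected in 32.5% of kept cells. Pcna, the sliding clamp that tethers polymerases to DNA, followed at 62.7 CPM (60.5 to 65.1). The next were Slbp, which binds the stem loop of histone mRNAs, at 47.7 CPM, Atad2, a bromodomain ATPase, at 45.3 CPM, Pola1, the catalytic subunit of DNA polymerase alpha, at 44.8 CPM, and Rrm1, the large subunit of ribonucleotide reductase, at 44.6 CPM. The intervals of the last 3 overlap. At the low end stood Chaf1b, a subunit of the histone chaperone CAF-1, at 3.19 CPM (2.69 to 3.75), Cdc6, which loads the helicase at origins, at 3.48 CPM (2.96 to 4.06), Pold1, the catalytic subunit of polymerase delta, at 3.94 CPM, and Mcm5 at 4.16 CPM, with overlapping intervals. Within the helicase, Mcm7 (34.7 CPM) was above Gins2 (17.98), Mcm4 (17.6), Mcm6 (14.1), Mcm3 (11.9) and Mcm2 (8.98), although the 6 MCM proteins work as 1 ring. By role, the 6 genes of nucleotide supply and uracil control held 35.1% of the members' UMIs, the 9 helicase genes 12.3% and the 2 loaders 1.16%.

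**Figure D1:**
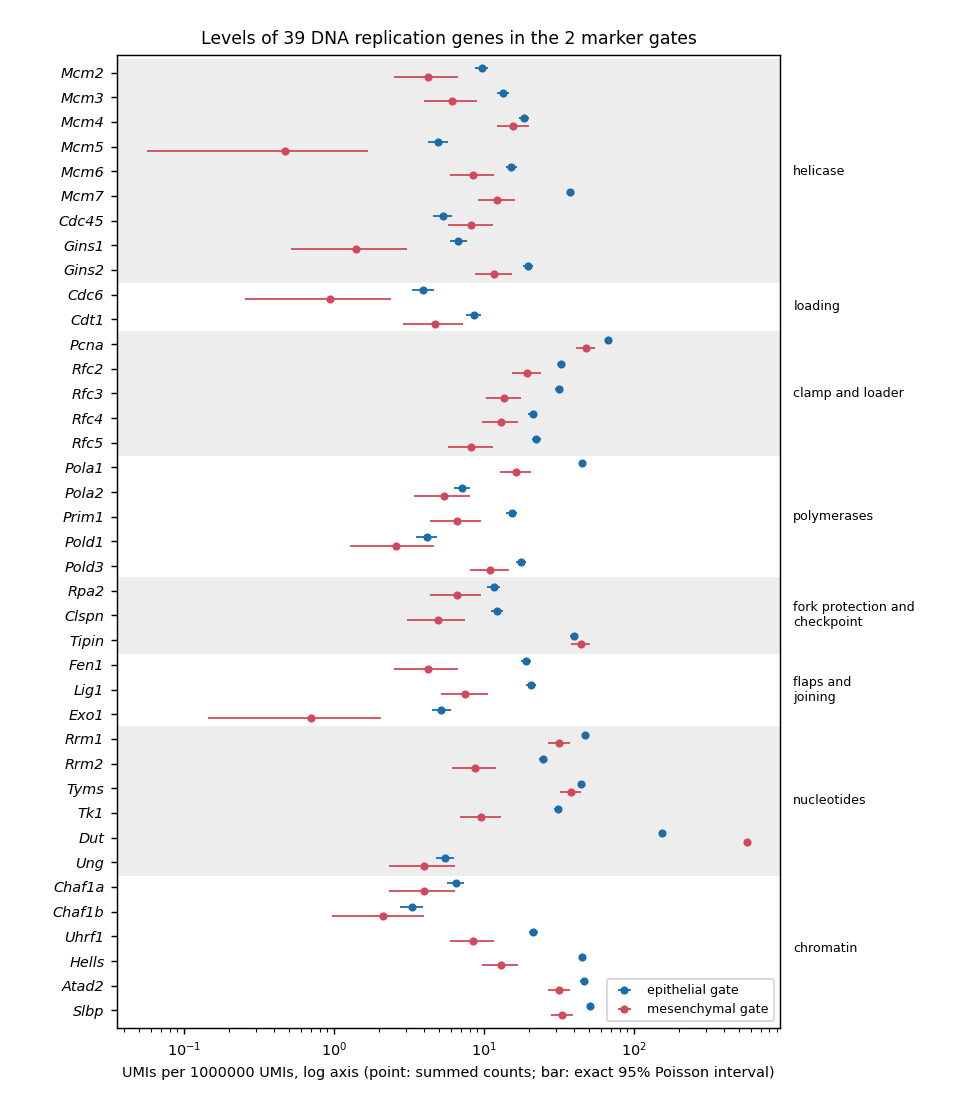
Level of each of the 39 genes in the epithelial (blue) and mesenchymal (red) gates, in UMIs per 1000000 UMIs on a log axis, with points from counts summed over cells and bars for exact 95% Poisson intervals. Dut stands to the right of all other genes and is the 1 gene whose mesenchymal point lies far above its epithelial point (568.8 against 154.7 CPM), whereas Fen1, Mcm7, Hells and Tk1 lie to the left in the mesenchymal gate.

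The genes were detected in the same cells more often than their single frequencies give. Each cell with enough UMIs was thinned at random to 1500 UMIs, which used 13281 cells and left out 1644. Over the 741 pairs of members, the number of thinned cells with a UMI of both was a median of 2.68 times the number expected from the 2 single shares, and it was below that number in 9 pairs. Among the 263 pairs expected in at least 10 cells the median was 2.11 and the range 0.943 to 4.93. Rrm2, the small subunit of ribonucleotide reductase, and Tk1, thymidine kinase, were the highest of these: 69 cells had both, against 14.0 expected (ratio 4.93, 3.84 to 6.24). Mcm3 with Hells, a chromatin remodeler, followed at 54 cells against 11.4 (4.75, 3.57 to 6.20), and Tk1 with Uhrf1, which reads hemimethylated DNA, at 52 against 11.4 (4.55, 3.40 to 5.97). For the 15 pairs among Mcm2 to Mcm7 the median was 2.92, from 1.35 for Mcm6 with Mcm7 to 8.67 for Mcm3 with Mcm5. Mcm3 was detected in 1.63% and Mcm5 in 0.587% of thinned cells, so both were expected together in fewer than 10 cells. All these ratios are correlations across cells of 1 sample, which share their library. No ratio for pairs of other genes is given here, so how far the excess is particular to the members was not tested.

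Members differed in how closely they went with the rest. The median ratio over a gene's 38 pairs was highest for Cdc6 (4.82), Clspn, which couples the fork to the checkpoint (3.98), Uhrf1 (3.93) and Mcm3 (3.81). It was lowest for Pold3, an accessory subunit of polymerase delta (1.53), Rfc2, a clamp loader subunit (1.68), Slbp (1.71), Dut (1.79) and Mcm7 (1.85). The order depends on the measure. Per cell, Spearman correlations between a member and the sum of the other 38 ran from 0.04 for Pold3 to 0.20 for Hells, with Dut among the higher (0.18) and Cdc6, a gene of few counts, lower (0.11). In counts this sparse they are a description only.

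Summed over the 39 genes, a thinned cell had a median of 1 UMI and a mean of 1.44, with 40.7% of cells at 0, 4 UMIs at the 90th percentile, 10 at the 99th and 20 at most. The variance was 3.02 times the mean, and 2.88 times with Dut left out. A cell was called raised at 5 or more UMIs, the larger of 5 UMIs and 3 times the median. By this rule 1045 of 13281 cells were raised, 7.87% (7.42% to 8.34%), and they held 39.3% of the members' UMIs. The counts fall off smoothly across this border, with 474 cells at 4 UMIs and 311 at 5, so the raised cells are a range of the sum. Whether the sum holds 1 population or more was not tested. Without thinning, 18.1% of kept cells had 5 or more UMIs. The raised cells had a median of 3420 UMIs against 3100 in the other cells, 2.25% against 2.76% mitochondrial UMIs, and 10831 against 17528 CPM of the nuclear RNA Malat1. The part of these differences in the levels below was not tested.

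To describe single genes, each member was left out of the sum that chose its raised cells, and its level was taken from all UMIs of those cells. A gene was called where the higher level was at least 10 CPM, the ratio at least 2 and the intervals did not overlap. Under this rule all 39 members were higher in cells raised for the other 38, against 5.44% of the 8853 genes that reached 10 CPM in either set of cells. None was lower (background 1.13%). The members' median log2 ratio was 2.69, against -0.02 over all genes tested.

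Cdc6 had the highest ratio, 26.5 CPM (21.5 to 32.3) in raised cells and 1.36 CPM (1.021 to 1.77) in the others, or 19.5-fold. Clspn stood at 72.0 against 5.81 CPM (12.4-fold). Mcm5 stood at 25.8 against 2.26 CPM (11.4-fold) and Exo1, a nuclease, at 27.2 against 2.62 CPM (10.4-fold). Rrm2 (130.4 against 12.9 CPM) and Uhrf1 (111.0 against 10.97 CPM) were both 10.1-fold higher. Among these 6 genes, all but Rrm2 and Uhrf1 were below 6 CPM outside the raised cells.

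Other members had a sizeable level outside raised cells and a smaller ratio. Pold3 was the lowest, at 35.6 CPM (29.8 to 42.3) against 14.7 CPM (13.5 to 15.96), or 2.42-fold. Rfc2 followed at 73.5 against 26.3 CPM (2.79-fold), Dut at 593.8 against 186.8 CPM (3.18-fold), Mcm7 at 93.2 against 29.2 CPM (3.19-fold) and Slbp at 132.7 against 40.4 CPM (3.28-fold). Subunits of 1 complex differed in this ratio. In the MCM ring the ratio ran from 3.19 for Mcm7 and 5.08 for Mcm6 to 9.38 for Mcm3 and 11.4 for Mcm5. In the clamp loader it ran from 2.79 for Rfc2 and 3.41 for Rfc3 to 4.87 for Rfc4 and 4.93 for Rfc5. In polymerase alpha-primase, Pola2 was at 3.83, Pola1 at 5.19 and Prim1, the small primase subunit, at 8.27.

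Mcm7 overlaps Cops6, a gene of 123.7 CPM on the opposite strand, Rfc4 overlaps Eif4a2 (172.4 CPM) and Fen1 overlaps Tmem258 (229.2 CPM). In all, 11 of the 39 members overlap another counted gene, 10 of them on the opposite strand. Whether the counting used strand is not given in the sources used here, so reads of such partners may be mixed.

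**Figure D2:**
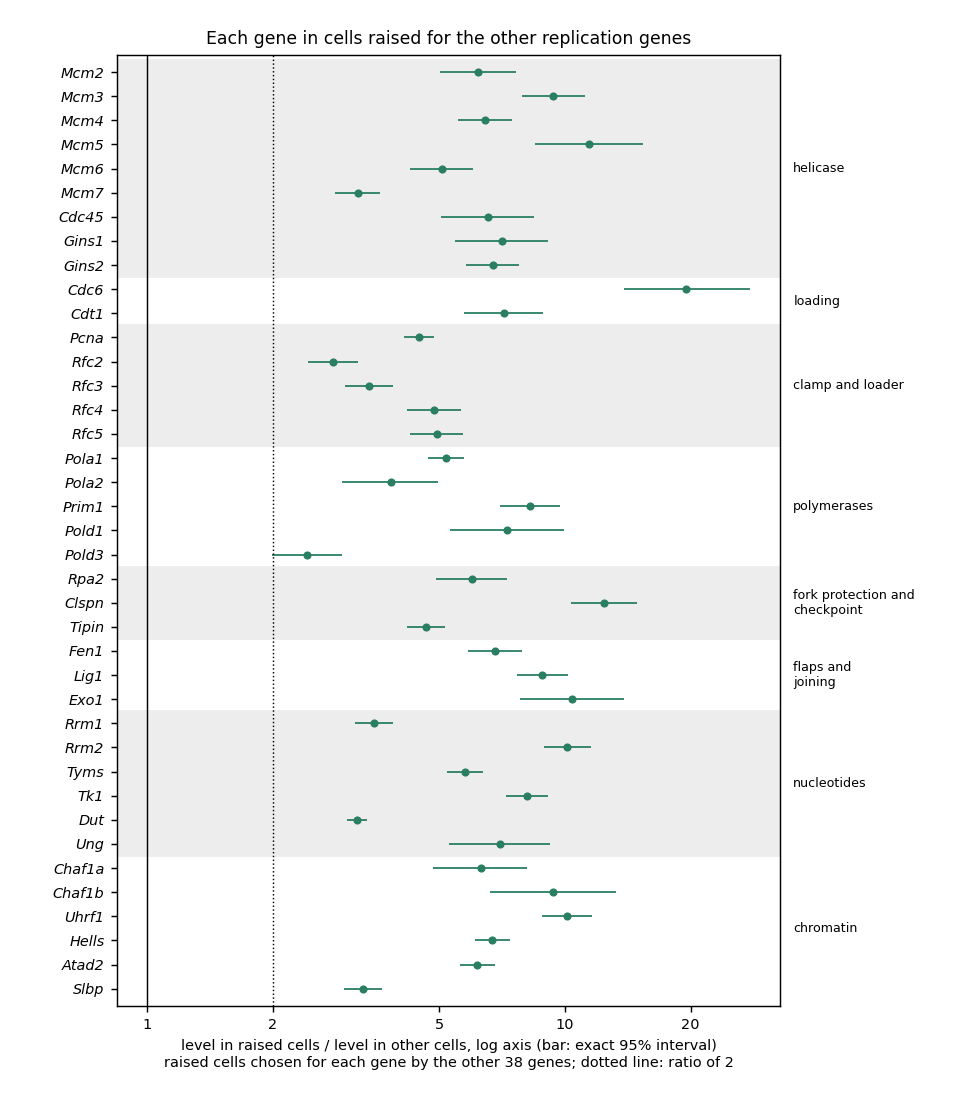
Ratio of each gene's level in cells raised for the other 38 genes to its level in all other thinned cells, on a log axis, with exact 95% intervals. All 39 intervals lie above 1, from Pold3 at 2.42 to Cdc6 at 19.5.

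Genes of the pathway outside the 39 were described from 5 lists (60 genes). Of these, 36 were higher in raised cells (background 5.44%) and none lower (background 1.13%), and 55 reached 10 CPM. All 8 recombination genes that act at forks were higher, led by Rad51ap1 at 50.7 against 3.22 CPM (15.7-fold) and Brca1 at 71.3 against 6.27 CPM (11.4-fold). Of 21 fork and polymerase genes 13 were higher, led by Dscc1, a subunit of an alternative clamp loader (14.4-fold), Wdhd1 (9.67-fold) and Pole, the catalytic subunit of polymerase epsilon (8.68-fold). Of the 17 genes listed under licensing and firing, 8 were higher. They were led by Mcm10 (10.6-fold), Cdc7, the kinase that fires origins (8.36-fold), and Mcm8 (7.96-fold), listed there by its MCM name. The origin recognition genes Orc2 to Orc5 were at ratios of 0.63 to 1.59 and were not called, whereas Orc6 was 3.98-fold higher. Orc1 had 7.59 against 1.16 CPM (6.55-fold, 3.94 to 10.7), under the 10 CPM that the rule requires. Of 8 nucleotide genes 4 were higher, among them Dck, deoxycytidine kinase (4.73-fold), and Dtymk, thymidylate kinase (2.42-fold), and of 6 chromatin genes 3, led by the histone chaperone gene Asf1b (7.62-fold).

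Regulators were called in part, against the same background of 5.44%. Of 24 E2F and Rb genes, 9 were higher: E2f7 (13.8-fold) and E2f8 (9.34-fold), which repress E2F targets, the cyclin E genes Ccne2 (7.76-fold) and Ccne1 (3.60-fold), Rbl1 (4.70-fold), Cdk2 (3.43-fold), E2f1 (2.92-fold), the E2F partner Tfdp1 (2.41-fold) and Cdc25a (2.12-fold). E2f3 to E2f6 (ratios of 0.75 to 1.16), Rb1 (1.83) and Rbl2 (1.09) were not. The cyclin D genes and their kinases were not called either, with Ccnd1 at 298.4 against 209.2 CPM, Ccnd2 at 394.0 against 454.7 CPM and Cdk4 at 288.9 against 209.8 CPM. Cdkn2a, the edited locus, had 420.0 CPM (399.4 to 441.5) in raised cells and 679.9 CPM (671.8 to 688.0) in the others, a ratio of 0.62 that does not pass the rule. A 3' count does not show whether the edited gene makes a working protein.

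Of 11 histone genes counted, 10 were higher (background 5.44%), led by Hist1h1b (331.4 against 36.9 CPM, 8.98-fold). Hist1h1c was lower (background 1.13%), at 107.6 against 244.2 CPM. Among all genes detected in at least 25% of raised cells, the largest ratios outside the members belonged to Pclaf, which encodes a PCNA-binding factor (555.8 against 50.7 CPM, 10.96-fold), Ncapg2, a condensin subunit (10.2-fold), Hist1h1b, Esco2, a cohesin acetyltransferase (8.89-fold), and Cenph (7.94-fold). They were followed by Shcbp1, Hist1h3c, Hist1h2ae, Cenpk and Cenpp, at 7.73-fold to 6.65-fold.

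The next question was how the replication genes stand beside those of mitosis. Cells were called raised for 25 mitosis genes, none of them a member, by the same threshold of 5 UMIs. Such cells made up 12.3% of thinned cells. Both sets were raised in 562 cells (4.23%), the replication genes alone in 483 (3.64%), the mitosis genes alone in 1072 (8.07%) and neither in 11164 (84.1%). Of the cells raised for replication, 53.8% (50.7% to 56.8%) were also raised for mitosis. By marker gate this share was 56.6% (53.4% to 59.8%) in epithelial and 24.1% (13.5% to 37.6%) in mesenchymal cells. It was 27.8% (14.2% to 45.2%) in mixed and 50% (29.9% to 70.1%) in ungated cells. Across cells the sums of the 2 lists had a Spearman correlation of 0.42 and a Pearson correlation of 0.41 (13281 cells of 1 library). All 25 mitosis genes were higher in cells raised for replication than in the others (background 5.44%), from 2.09-fold for Cdc20 to 6.50-fold for Aurkb. The call was lost for Cdc20 under 5 alternatives and for Plk1 under 1. In the other direction, 35 of the 39 members were higher in mitosis-raised cells (background 5.64%) and none lower (background 2.4%), a comparison added after the data were seen. Ung, Pold1, Pold3 and Chaf1b were the 4 not called. Of these, Ung, Pold1 and Chaf1b were under 10 CPM in both sets of cells, so the rule could not call them. Pold1 had 9.94 against 3.01 CPM and Chaf1b 6.89 against 2.61 CPM (2.64-fold), each with intervals that do not overlap. Pold3 was 1.87-fold higher, below the limit of 2, and Ung was at a ratio of 0.91.

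Within cells raised for replication, 1 member passed the rule between those with and without raised mitosis genes. Ung, the glycosylase that removes uracil from DNA, had 41.3 CPM (32.1 to 52.4; 68 UMIs) without raised mitosis genes and 10.4 CPM (6.43 to 15.9; 21 UMIs) with them, 3.98-fold lower (2.41 to 6.83). The background was 0.787% of 8891 genes for this direction and 1.61% for the other, in which no member was called. In cells raised for mitosis alone Ung was at 2.13 CPM (0.98 to 4.05), and in cells raised for neither at 3.63 CPM. Of these 4 classes, the one with replication genes raised and mitosis genes not had the highest level of Ung, and its interval overlapped none of the others. Chaf1b passed as well when cells under 1000 genes or 2000 UMIs were left out, and Rrm2, in the other direction, when cells were thinned to 2000 UMIs.

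Smaller differences ran in both directions. The interval of the ratio was above 1 for 9 members (background 8.92%) and below 1 for 6 (background 6.57%). Above 1 were Rfc4 (1.58), Tk1 (1.52), Rrm1 (1.49), Rfc2 (1.48), Rrm2 (1.42), Rfc5 (1.40), Tyms, thymidylate synthase (1.39), Prim1 (1.34) and Dut (1.29). These include 5 of the 6 genes of nucleotide supply and uracil control (all but Ung) and 3 of the 4 clamp loader genes. Below 1 were Ung (0.25), Cdt1, the licensing factor (0.54), Chaf1b (0.59), Mcm3 (0.68), Uhrf1 (0.77) and Gins2 (0.78). Cdt1 had 51.6 CPM (41.1 to 63.9) with replication genes alone raised, 27.9 CPM (21.1 to 36.2) with both and 10.4 CPM (7.56 to 14.0) with mitosis genes alone, levels whose intervals do not overlap. For Tk1 these 3 levels were 114.1 CPM (98.1 to 132.1), 173.6 CPM (155.3 to 193.5) and 92.9 CPM (84.1 to 102.4). The members' median ratio was 1.011.

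**Figure D3:**
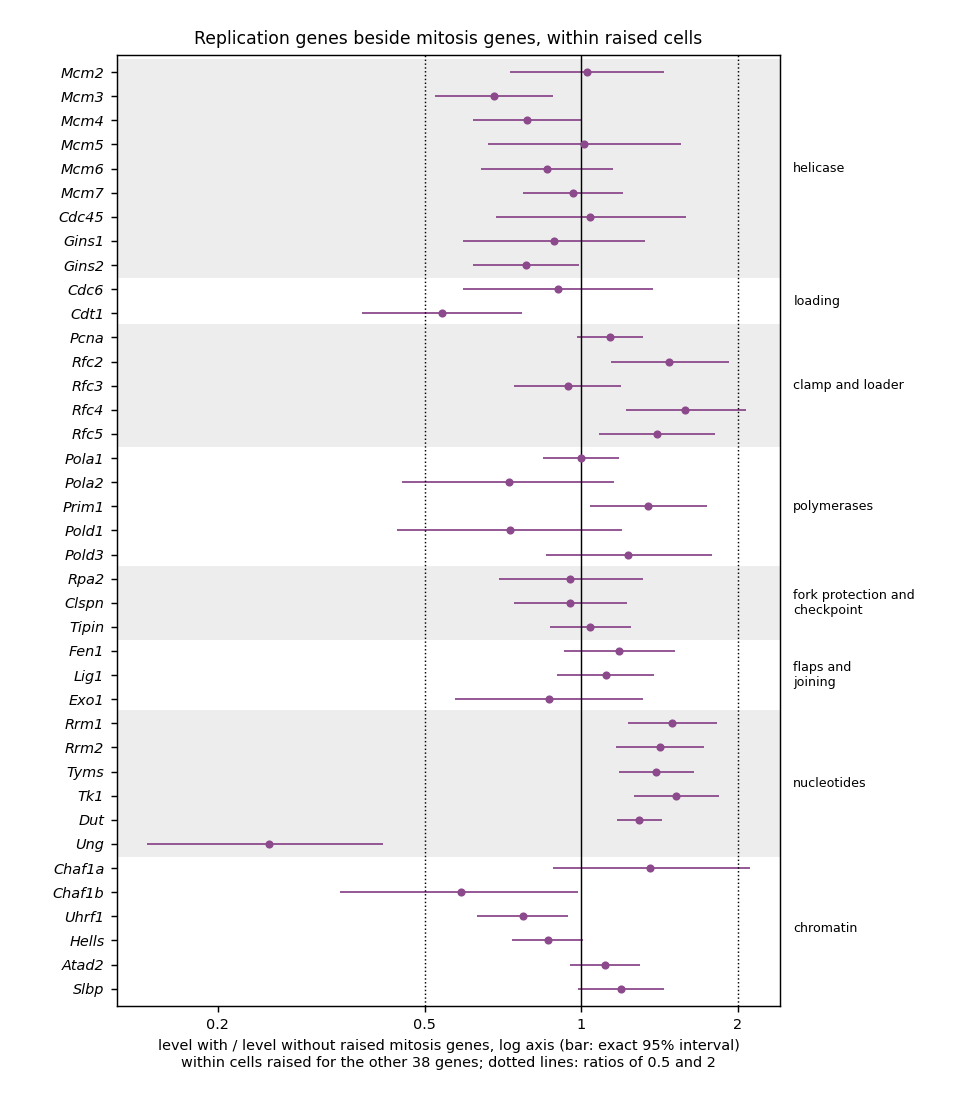
Ratio of each gene's level between cells raised for the other 38 replication genes with and without raised mitosis genes, on a log axis, with exact 95% intervals and dotted lines at ratios of 0.5 and 2. Ung lies alone to the left at 0.25, the genes of nucleotide supply lie to the right between 1.29 and 1.52, and most other intervals include 1.

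By gate, raised cells were more frequent in the epithelial gate. There 929 of 10791 thinned cells were raised, 8.61% (8.09% to 9.15%), against 54 of 1236 in the mesenchymal gate, 4.37% (3.30% to 5.66%), a ratio of 1.97 (1.497 to 2.64). The mixed cells had 5.45% and the ungated 4.38%. Without thinning the order was the reverse: 18.2% of 11676 epithelial and 26.4% of 1244 mesenchymal cells had 5 or more UMIs. The gates differed in median depth, at 3005 UMIs in the epithelial and 3331 in the mesenchymal gate. They also differed in the members' share of all UMIs, at 0.0996% and 0.104%. The cause of the reversal was not tested. For the mitosis genes the shares of thinned cells that were raised were 13.9% and 4.05%, a ratio of 3.44 (2.59 to 4.65).

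The sum over the 39 genes combines opposite differences, for Dut and for the rest. Dut had 154.7 CPM (150.7 to 158.8) in the epithelial gate, 347.0 CPM (324.1 to 371.2) in mixed cells and 568.8 CPM (546.4 to 591.9) in the mesenchymal gate, 3.68-fold above the epithelial gate. It was detected in 28.3% of epithelial and 75.6% of mesenchymal cells, and at the thinned depth in 16.9% and 51.8%. It made up 15.5% of the members' UMIs in the epithelial gate and 54.8% in the mesenchymal gate. The other 38 genes together held 0.0841% of UMIs (0.0831% to 0.0850%) in the epithelial and 0.0470% (0.0449% to 0.0491%) in the mesenchymal gate. With Dut left out of the sum, an alternative added after the data were seen, 735 epithelial cells were raised, 6.81% (6.34% to 7.30%), but 11 mesenchymal cells, 0.890% (0.445% to 1.59%). The ratio between the gates was then 7.65 (4.25 to 15.4) in place of 1.97.

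**Figure D4:**
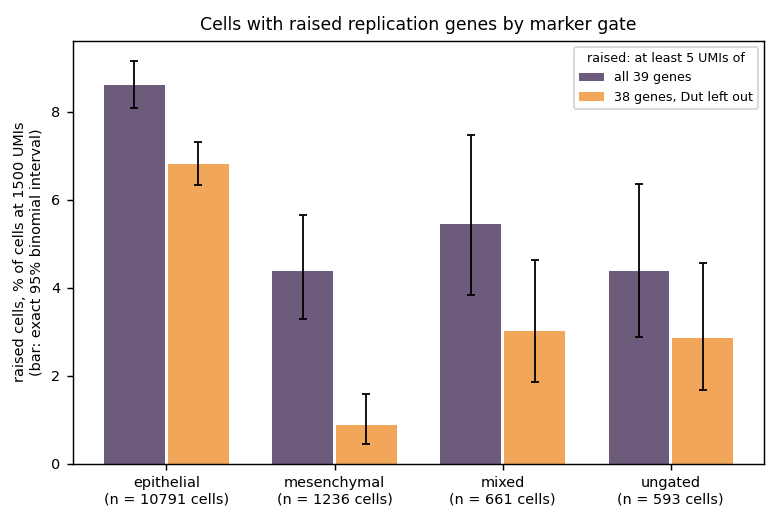
Share of thinned cells with at least 5 UMIs of the replication genes in each gate, with all 39 genes (dark) and with Dut left out (orange), and exact 95% binomial intervals. Leaving out Dut lowers the epithelial share from 8.61% to 6.81% and the mesenchymal share from 4.37% to 0.890%.

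The high level of Dut in the mesenchymal gate did not follow the other replication genes. In cells not raised for the other 38, Dut had 122.4 CPM (118.7 to 126.3) in the epithelial and 566.8 CPM (544.3 to 590.0) in the mesenchymal gate. In raised cells it had 590.9 CPM (561.7 to 621.2) in the epithelial gate, 4.83-fold above the unraised cells (4.55 to 5.12). In the 11 raised mesenchymal cells it had 792.0 CPM (557.6 to 1092), 1.40-fold above the unraised cells of that gate, with an interval of 0.98 to 1.93 that includes 1. The unraised mesenchymal cells and the raised epithelial cells thus held Dut at similar levels, with overlapping intervals. Dut was detected in 75.6% of mesenchymal cells, where Epcam had a UMI in 1.77%, Krt14 in 29.2%, Perp in 31.8%, Sfn in 36.8% and Krt17, the highest of the epithelial markers, in 37.2%. The part of free RNA in the level of Dut was not tested.

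Gene by gene, 13 members were higher in the epithelial gate (background 11.2% of 9134 genes) and 1 in the mesenchymal gate (background 11.6%), and 27 of the 39 reached 10 CPM in either gate. The members' median log2 ratio was 0.85, against 0.004 over all genes tested. The ratio was highest for Fen1, the flap nuclease, at 19.1 CPM (17.7 to 20.6) against 4.21 CPM (2.50 to 6.66; 18 UMIs), or 4.53-fold (2.84 to 7.69). Hells followed at 44.9 against 12.9 CPM (3.49-fold), Tk1 at 31.2 against 9.60 CPM (3.25-fold), Mcm7 at 37.7 against 12.2 CPM (3.10-fold) and Rrm2 at 24.7 against 8.66 CPM (2.85-fold). Pola1 and Lig1, the ligase of lagging strands, were each 2.75-fold higher, Rfc5 2.72-fold, Uhrf1 2.52-fold, Clspn 2.49-fold, Prim1 2.34-fold, Rfc3 2.32-fold and Mcm3 2.20-fold. The call for Mcm3, the nearest to the limit of 2, was lost under 1 alternative.

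Of the 12 members under 10 CPM in both gates, which the rule could not call, several had large ratios from few molecules. Mcm5 had 4.94 CPM in the epithelial gate and 2 UMIs or 0.47 CPM in the mesenchymal gate, a ratio of 10.6 with a counting interval of 2.88 to 87.8. Exo1 had 5.19 CPM against 3 UMIs or 0.70 CPM (7.39, 2.49 to 36.1), Gins1 6.75 against 1.40 CPM (4.81, 2.18 to 13.2) and Cdc6 3.93 against 0.94 CPM (4.19, 1.60 to 15.6). Besides Dut, the members with a higher value in the mesenchymal gate were Tipin, a fork protection factor (39.5 against 44.2 CPM), and Cdc45 (5.30 against 8.19 CPM, ratio 0.65, 0.45 to 0.96). Tyms (44.1 against 37.9 CPM) and Mcm4 (18.4 against 15.7 CPM) had intervals of the ratio that include 1. The 6 MCM genes, whose products form 1 ring, thus ranged from 1.17 for Mcm4 to 10.6 for Mcm5 between the gates.

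Of the 60 other replication genes, 42 were at 10 CPM or more. In the epithelial gate 12 were higher (background 11.2%), and in the mesenchymal gate 0 (background 11.6%). The 12 included Shmt1, which supplies one-carbon units (12.9 against 2.34 CPM, 5.49-fold), Brca2 (19.9 against 3.75 CPM, 5.32-fold) and Pole2 (3.65-fold). Of the 25 mitosis genes 21 were higher in the epithelial gate, against the same background of 11.2%. Among the regulators, Cdkn1a, which encodes the kinase inhibitor p21, had 89.8 against 5.15 CPM (17.4-fold, 11.5 to 27.9) and Ccnd1 241.5 against 79.3 CPM (3.04-fold). Cdkn2a was lower in the epithelial gate, at 548.2 against 1244 CPM.

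When cells were split by state, the members' difference between the gates depended on how raised cells were chosen. With the 39-gene sum, 16 members were higher in raised epithelial cells (background 5.64%) and Dut in raised mesenchymal cells (background 9.43%). In that comparison no member was left out of the sum, so each gene's own UMIs helped to choose its cells. Its calls therefore cannot show how the gates differ. In the 54 raised mesenchymal cells, which the sum with Dut chose, Dut stood at 1564 CPM. With Dut left out of the sum, 0 members were called in either direction between the 735 epithelial and 11 mesenchymal cells (backgrounds 1.59% and 4.58%), with a median ratio of 1.15. The count was also 0 where raised cells were those with 5 different members, Dut included. With Dut and Pcna itself left out of the sum, Pcna, for example, had 243.7 CPM in epithelial raised cells. In the mesenchymal raised cells it had 321.1 CPM (179.7 to 529.6, from 15 UMIs). With 11 cells, differences of this size were not detectable at this depth. In cells not raised, 8 members were higher in the epithelial gate (background 11%): Mcm7, Rfc3, Rfc5, Pola1, Fen1, Lig1, Tk1 and Hells. Dut was higher in the mesenchymal gate (background 11.6%). The cells not raised were also set apart by the 39-gene sum with no member left out, so the same limit holds.

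Within each gate the members again went together. By the sum without Dut, all 39 were higher in raised epithelial cells (background 5.76%), from 2.67-fold for Pold3 to 13.6-fold for Cdc6. In the mesenchymal gate 21 were (background 3.44%), from 11 raised cells. Pcna had 15 UMIs in them, 321.1 against 44.6 CPM (7.20-fold, 3.95 to 12.2), Tyms 10 UMIs (6.69-fold) and Atad2 10 UMIs (11.3-fold).

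The ungated cells are shallow (median 1419.5 UMIs), with 5.39% mitochondrial UMIs and 50642 CPM of Malat1, against 17024 CPM in the epithelial gate. Pola1 was at 117.4 CPM (103.8 to 132.3) against 45.1 in the epithelial gate, Atad2 at 71.6 CPM (61.1 to 83.4) against 46.0, and Hells at 55.0 CPM (45.8 to 65.5) against 44.9 with overlapping intervals. Dut was at 203.0 CPM against 154.7. Mcm3, by contrast, was at 3.49 CPM against 13.4 and Rfc5 at 6.98 CPM against 22.3. The part of the nuclear RNA share in these values was not tested.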

How the data were processed

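Live RFP-positive mouse PC cells were processed with a 10x Genomics 3' v2 kit, per the labels' protocols. The deposited values are UMI counts, whole numbers per gene and barcode written by Cell Ranger 8.0.1, per the file headers, and not normalized. The submitters' processing notes name mm10 and Scanpy 1.8.2. The matrix, 18116 barcodes with 47720034 UMIs, carries no map to the 3 libraries and was treated as 1 pooled sample. Whether it holds reads of the gene expression library alone is not given in the sources used here.

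Cells were kept at 500 genes, 1000 UMIs and 20% mitochondrial UMIs, which removed 3191 barcodes (17.6%) and left 45443280 UMIs. Scrublet (scanpy 1.11.5, expected rate 5%) called 1 of 14925 cells, 0.0067%, so all cells were kept and leaving out the 10% with the highest scores was tried. Levels are summed UMIs per 1000000 (CPM) with exact Poisson intervals. Shares have exact (Clopper-Pearson) binomial intervals and ratios of levels exact conditional binomial ones, at 95%. PCR and capture error are not covered. Random thinning used seed 1, and levels came from unthinned counts. The calling step was tested on simulated counts. With 1 sample no test between groups was made.

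Genes named are all 39 members, up to 5 called genes of each list in each direction, the 10 genes outside the members with the largest ratio among those detected in 25% of raised cells, and the marker genes. The unnamed rest stands in counts, and genes printed without a call were chosen after their values were seen. Single values of some list genes are not reported here. The members and lists were chosen with earlier results of these data known. Gene positions came from GENCODE M21, which holds 32158 of the feature IDs, and promoter windows from RefSeq on GRCm38.p6. Member proteins were not analysed here. The analysis used Python 3.11.15, numpy 2.4.6 and scipy 1.17.1.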

Additional observations from a re-analysis of the deposited data

How the results depend on the processing

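All 39 members remained higher in cells raised for the others under the 11 alternatives run that change those cells or their values. That comparison was not run for cells with 5 different members. No direction of a called value was reversed. The comparison of whole gates uses all gated cells without thinning, so that 7 alternatives bear on it. Under 6 of them 13 members were higher in the epithelial gate and 1 in the mesenchymal, and under gates from the held-out markers 16 and 1, although with stricter gates Mcm3 lost its call (ratio 1.72) and Gins2 gained one (2.02). Among other genes, Cdc20 lost its call in raised cells under 5 alternatives, and Plk1, Dbf4 and Shmt1 under 1 each. The alternatives of 2 and 4 times the median left the threshold at 5 UMIs and so tested nothing.

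The shares of raised cells depend on depth and threshold, which set them by construction. The share over all cells and in the epithelial and mesenchymal gates was 3.78%, 4.21% and 1.37% with thinning to 1000 UMIs, and 11.9%, 12.7% and 10.0% with 2000. It was 6.29%, 7.27% and 1.05% for 5 different members, and, as alternatives chosen after seeing the data, 11.4%, 12.1% and 9.30% at 4 UMIs, 3.83%, 4.37% and 0.890% at 7 UMIs, and 5.90%, 6.81% and 0.890% without Dut. With at least 1000 genes and 2000 UMIs per cell it was 8.42% over all cells and 9.20% in the epithelial gate. The members' share of UMIs was 0.102% under that filter, 0.09755% without the cells of highest doublet scores, 0.102% without GFP and Scar in the totals, and 0.0934% as a mean of per-cell shares. Of the single members' levels under the alternatives, 170 stayed within their counting interval and 25 moved, among them Dut, with 216.9 CPM under the stricter cell filter and 188.8 CPM as a mean of per-cell shares.

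The number of members called between the gates within raised cells, 17 as reported with no member left out of the sum, was the least stable. It was 7 at most 10% mitochondrial UMIs, 9 and 26 with thinning to 1000 and 2000 UMIs, 24 at 4 UMIs, 1 at 7 UMIs, 0 for 5 different members (for this count also chosen after seeing the data) and 0 without Dut, where 11 mesenchymal cells remain. Between raised cells with and without mitosis genes it was 2 in place of 1 under the stricter cell filter (Chaf1b) and with thinning to 2000 UMIs (Rrm2). The cause of these changes was not tested.

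The data are 1 culture and 1 matrix with no replicate, so no difference was set against the spread between cultures. Low counts limit Cdc6, Chaf1b, Pold1, Mcm5, Exo1 and Ung most, and the 11 raised mesenchymal cells limit every statement about them. No paired analysis was possible because there is 1 sample.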
